A study of Mus musculus with 7 samples.

Results

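The germline-silenced E2F6 target genes analyzed here were *Slc25a31*, *Tuba3a*, *Tuba3b*, *Tex19.1*, *Dazl*, *Taf7l*, *Stk31* and *Tdrkh*. These 8 genes, of 21928 to which the transcripts were matched, were listed by name. The rule takes germline genes whose promoters are silenced in somatic cells by E2F6 or by DNA methylation. It names no measured value, but the genes were chosen with earlier results of these data known. The libraries were bulk RNA-seq of preleptotene-enriched testes from 4 wild-type (WT) and 3 *Meioc* knockout (*Meioc* KO) pups of the strain C57BL/6N. The knockout pups carried the null allele *Meioc* tm1.1Dpc, which removes MEIOC, a partner of YTHDC2 and RBM46 in germ cells, from the whole animal. Pups of both genotypes were synchronized with daily WIN 18,446 (0.1 mg per g of body weight, P2 to P8), a drug that keeps retinoic acid from being made, followed by retinoic acid (0.0125 mg per g) on P9, and whole testes were taken 6.75 days after the retinoic acid. Each library was made from 1.5 testes of a single pup without sorting, so germ cells and testicular somatic cells were measured together, and a smaller number of germ cells and less RNA per germ cell cannot be told apart. The comparison asks whether transcripts of these genes were more or less abundant when MEIOC was present.

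E2F6 is an E2F family protein without an activating domain. It represses transcription as part of the Polycomb complex PRC1.6, in which it sits with MGA, MAX, L3MBTL2 and PCGF6. MGA-MAX recognizes E-boxes and E2F6 recognizes E2F sites, and in somatic lineages many germline promoters bound by this complex go on to acquire DNA methylation and stay silent, while germ cells transcribe them. The 8 genes act in different processes. *Dazl* encodes an RNA-binding protein that germ cells need for their development. *Tdrkh* encodes a Tudor protein on mitochondria that binds PIWI proteins in the piRNA pathway, and *Stk31* encodes a germline protein with Tudor and kinase-like domains. *Tex19.1* encodes a mammalian germline protein that limits retrotransposons. *Taf7l* encodes a germ cell paralog of TAF7, a subunit of the general transcription factor TFIID. *Tuba3a* and *Tuba3b* encode testis-enriched alpha tubulins, and *Slc25a31* encodes the germline ADP/ATP carrier of mitochondria, also called ANT4.

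The promoters were first examined for the letters that the complex is known for. RefSeq windows on GRCm38.p6, which reach from 250 bases before an annotated start to 50 bases after it, were matched by symbol for all 8 genes (9 windows, since *Stk31* has a pair of overlapping starts). Each was searched on both strands for TCCCGC, an E2F core that reads GCGGGA on the other strand, and for CACGTG, the E-box core, which reads the same on both strands. These motifs do not overlap each other in any of the windows. The 6 promoters with a match are shown 5′ to 3′ on the strand of the gene, with the matches in capitals, because they show where the motifs lie and how the tubulin promoters resemble each other:
Slc25a31 (chr3:40708621-40708920, plus strand): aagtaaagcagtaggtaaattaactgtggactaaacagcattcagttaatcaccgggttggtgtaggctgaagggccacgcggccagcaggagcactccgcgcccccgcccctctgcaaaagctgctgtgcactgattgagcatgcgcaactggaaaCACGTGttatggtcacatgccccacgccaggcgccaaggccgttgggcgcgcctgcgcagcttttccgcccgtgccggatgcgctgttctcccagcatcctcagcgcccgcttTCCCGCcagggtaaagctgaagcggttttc
Tuba3a (chr6:125286032-125286331, minus strand): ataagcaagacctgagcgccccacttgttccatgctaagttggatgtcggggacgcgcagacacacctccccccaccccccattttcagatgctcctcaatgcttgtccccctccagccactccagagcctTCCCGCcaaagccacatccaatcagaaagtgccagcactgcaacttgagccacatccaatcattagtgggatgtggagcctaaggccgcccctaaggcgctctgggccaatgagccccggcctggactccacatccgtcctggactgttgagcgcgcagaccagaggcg
Tuba3b (chr6:145615713-145616012, plus strand): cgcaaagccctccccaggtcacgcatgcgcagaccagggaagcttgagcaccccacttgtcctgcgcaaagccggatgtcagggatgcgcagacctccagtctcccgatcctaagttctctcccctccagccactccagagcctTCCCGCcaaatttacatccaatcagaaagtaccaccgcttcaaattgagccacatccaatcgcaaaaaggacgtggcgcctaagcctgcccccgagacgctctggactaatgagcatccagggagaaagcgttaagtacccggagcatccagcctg
Tex19.1 (chr11:121145893-121146192, plus strand): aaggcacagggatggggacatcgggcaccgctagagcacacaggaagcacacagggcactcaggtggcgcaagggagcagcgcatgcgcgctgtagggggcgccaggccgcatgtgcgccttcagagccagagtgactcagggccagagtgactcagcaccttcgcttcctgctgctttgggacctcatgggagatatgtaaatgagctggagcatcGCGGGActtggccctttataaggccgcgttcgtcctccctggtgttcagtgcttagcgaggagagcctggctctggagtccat
Taf7l (chrX:134476441-134476740, minus strand): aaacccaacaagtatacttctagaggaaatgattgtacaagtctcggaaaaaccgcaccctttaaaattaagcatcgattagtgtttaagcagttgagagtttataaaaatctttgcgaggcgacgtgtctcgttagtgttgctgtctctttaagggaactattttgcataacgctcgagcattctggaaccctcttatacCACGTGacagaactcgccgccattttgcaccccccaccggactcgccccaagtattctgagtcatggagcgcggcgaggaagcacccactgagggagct
Stk31 (chr6:49395289-49395588, plus strand): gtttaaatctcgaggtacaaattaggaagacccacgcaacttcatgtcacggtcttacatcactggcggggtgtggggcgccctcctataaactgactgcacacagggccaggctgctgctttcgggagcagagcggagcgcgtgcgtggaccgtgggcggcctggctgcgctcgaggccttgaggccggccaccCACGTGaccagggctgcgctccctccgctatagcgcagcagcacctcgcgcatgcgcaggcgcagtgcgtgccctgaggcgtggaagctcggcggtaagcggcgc

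TCCCGC was present in the windows of 4 of the 8 genes and CACGTG in those of 3, against 20.0% and 7.15% of all 32851 RefSeq windows of this length. Of the tested genes with a window, 39.0% held TCCCGC and 11.7% held CACGTG. *Slc25a31* was the only gene of the 8 with both, a combination held by 1.99% of all windows and by 5.1% of the tested genes with a window. Its E-box began 93 bases before the annotated start, and its E2F core began 20 bases after the start. From the RefSeq starts of the windows, the E2F core began 119 bases before the start in *Tuba3a* and 106 bases before it in *Tuba3b*. The GENCODE annotation used for the counts starts *Tuba3b* at base 145615757, inside the window and ahead of its core. Relative to that start the *Tuba3b* core lies within the gene. Both tubulin cores lay within a run of 33 bases that the windows share, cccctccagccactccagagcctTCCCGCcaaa. In *Tex19.1* the E2F core was on the opposite strand, 33 bases before the start. The E-box lay 49 bases before the start of *Taf7l* and 55 bases before the first annotated start of *Stk31*, or 120 bases before its second. The windows of *Dazl* and *Tdrkh* held neither motif, which says only that these letters are not in those windows. All 9 windows were richer in CpG than the median of all RefSeq windows. They held 12 CpG (*Tuba3a*) to 29 CpG (*Stk31*), against a median of 7 and quartiles of 3 and 20. The windows of *Tuba3a*, *Tuba3b*, *Tex19.1* and *Taf7l*, at 12 to 17 CpG, lay below the upper quartile. No CpG median was taken over the tested genes alone.

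**Figure D1:**
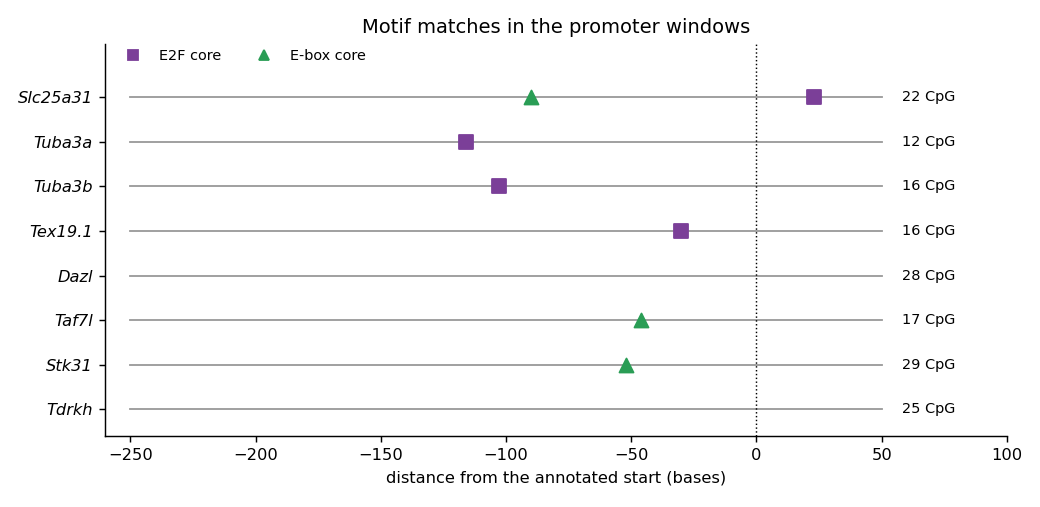
Matches to the E2F core (squares) and the E-box core (triangles) in the promoter window of each gene, by distance from the annotated start in bases, with the number of CpG in the window at the right (first window of *Stk31*). *Slc25a31* holds both motifs, *Dazl* and *Tdrkh* hold neither, and the tubulin cores lie 13 bases apart relative to their RefSeq starts.

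The motifs were then set against the comparison of genotypes over all tested genes. Of the 10628 tested genes with a window, 39.0% held TCCCGC. The median log2 fold change (WT/*Meioc* KO) was 0.0032 for the genes that held it and -0.0073 for the others, and 9.1% and 6.86% of them, respectively, were higher in WT. For CACGTG, held by 11.7% of the tested genes, the medians were -0.00073 with it and -0.0046 without it. Of these genes 9.35% and 7.52%, respectively, were higher in WT, as were 10.3% of those with both motifs. Among the 8, the 4 genes with TCCCGC had log2 fold changes of 0.23 to 0.68, the 3 with CACGTG had 0.60 to 0.83, and *Dazl* and *Tdrkh*, with neither, had 0.58 and 0.66. These figures are descriptions without a test.

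Levels per transcript length were compared in TPM. In WT testes the order was *Dazl* at 964 ± 44.3 TPM (SD, n = 4), *Taf7l* at 701 ± 56.0, *Tuba3a* at 158 ± 26.4, *Slc25a31* at 136 ± 12.1, *Stk31* at 117 ± 14.7, *Tuba3b* at 90.8 ± 13.3, *Tdrkh* at 50.0 ± 1.42 and *Tex19.1* at 41.4 ± 4.62 TPM. The ranges of the 4 WT libraries overlapped between *Tuba3a* and *Slc25a31*, between *Slc25a31* and *Stk31*, and between *Stk31* and *Tuba3b*, although every WT library held all 8 genes in this order. In *Meioc* KO testes the order changed at 2 places. *Stk31* lay above *Tuba3b* in 1 of 3 libraries, with mean levels of 79.2 and 80.9 TPM, and *Tdrkh*, at 36.9 TPM, lay below *Tex19.1*, at 42.0 TPM, in all 3. *Dazl* accounted for 46.7% to 51.1% of the summed CPM (counts scaled to library size, TMM-normalized) of the 8 genes in each library, so sums over these genes mostly follow *Dazl*.

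WT replicate 1 stood between the genotypes for several of these genes, so its values are pointed out beside each result. In the comparison of genotypes, 6 of the 8 genes were higher in WT, none was lower, and *Tuba3b* and *Tex19.1* did not pass (quasi-likelihood test in edgeR, Benjamini-Hochberg adjusted over 13630 genes, adjusted p under 0.05). Of all tested genes, 7.77% were called higher and 3.33% lower. All 8 had an unadjusted p under 0.05 from edgeR, for which no share over all tested genes was counted. With DESeq2 7 of the 8 were called higher, all but *Tex19.1*, against 10.7% of all tested genes, and with limma on log2(TPM + 1) *Dazl*, *Taf7l*, *Stk31* and *Tdrkh* were, against 2.65%. Without WT replicate 1, edgeR called 7 of the 8, *Tuba3b* included, and called 1440 of the 13630 tested genes higher. The median log2 fold change of the 8 was 0.63, from 0.23 to 0.83, against -0.0065 over all tested genes. In 7 of the 8, all but *Tuba3b*, every WT library lay above every *Meioc* KO library, which held for 15.4% of all tested genes. All 8 passed the filter on low values, since each was above 1 TPM in all 7 libraries. The direction of 7 of them was the same under every scaling tried; the exception, *Tex19.1*, is given with its values.

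**Figure D2:**
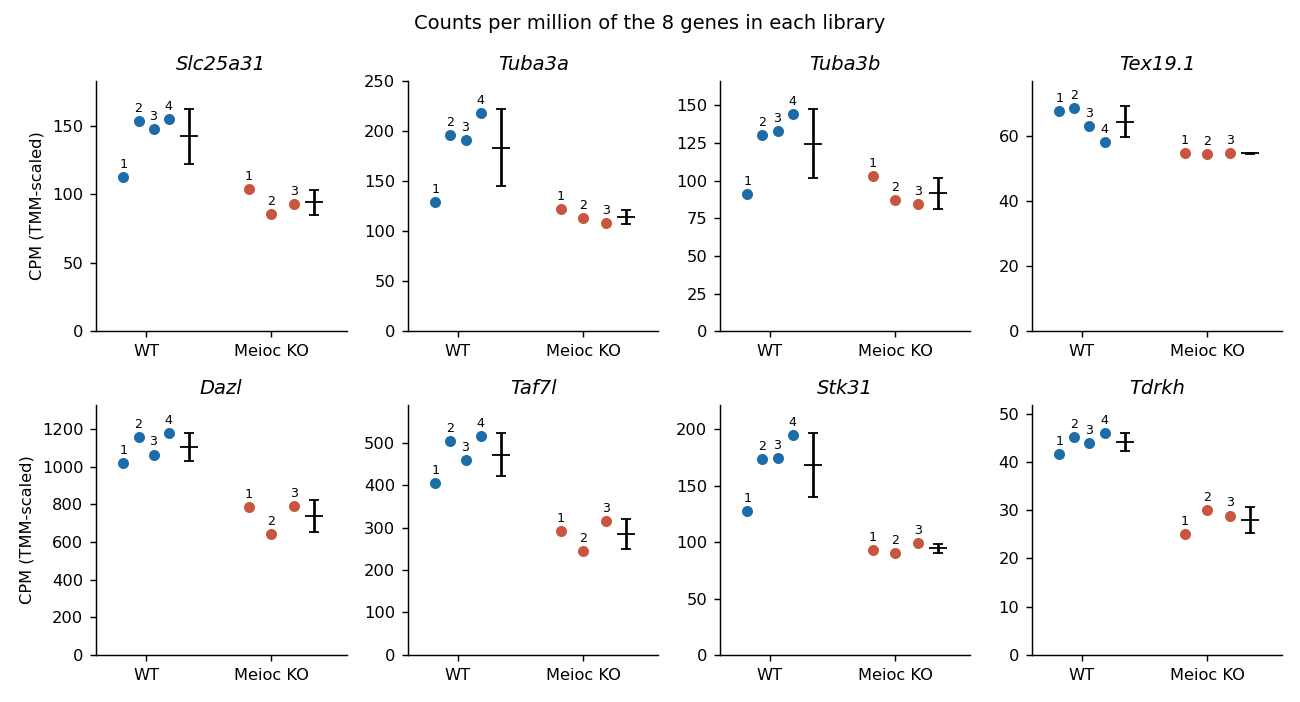
CPM of each gene in each library, with the replicate number beside each point and the mean ± SD of each genotype at the right of its points; each vertical axis starts at 0. The groups are separate in every panel except *Tuba3b*, where WT replicate 1 lies below *Meioc* KO replicate 1.

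Among the genes that act on RNA and in the piRNA pathway, *Dazl* was the most abundant. *Dazl* (chr17:50279395-50293636, minus strand) was measured at 1018, 1159, 1064 and 1177 CPM in WT replicates 1 to 4 and at 783, 642 and 788 CPM in *Meioc* KO replicates 1 to 3. All WT libraries were above all knockout libraries, and *Meioc* KO replicate 2 was the lowest. The means were 1105 ± 75.9 CPM (SD, n = 4) and 738 ± 82.7 CPM (SD, n = 3), a 1.50-fold difference (log2 fold change 0.58, SE 0.093, adjusted p = 0.011 from edgeR).

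*Tdrkh* (chr3:94413273-94434668, plus strand) was measured at 41.7, 45.2, 44.0 and 46.0 CPM in WT and at 25.0, 30.1 and 28.9 CPM in *Meioc* KO. The 4 WT libraries were close together, and all lay well above the knockout libraries. The means were 44.2 ± 1.90 CPM (SD, n = 4) and 28.0 ± 2.66 CPM (SD, n = 3), with a log2 fold change of 0.66 (SE 0.092, adjusted p = 0.0070 from edgeR). This was the smallest adjusted p of the 8. Of its 7 listed transcripts, Tdrkh-202 held 39.8% of the gene's counts in WT and 38.4% in *Meioc* KO, and Tdrkh-208 held 35.8% and 33.9%. Tdrkh-201 held 14.6% in WT and 22.1% in *Meioc* KO, at 139.1, 115.7, 141.3 and 2.9 counts in WT replicates 1 to 4 and 102.5, 122.9 and 87.0 counts in the knockout libraries, so WT replicate 4 alone was low. The remaining 4 transcripts each held under 5% of the gene's counts in either genotype. The division of reads among these transcripts was estimated, and shares were not tested.

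*Stk31* (chr6:49395604-49469501, plus strand) had the largest fold change of the 8. It was measured at 128, 174, 175 and 195 CPM in WT and at 93.3, 90.6 and 99.2 CPM in *Meioc* KO. WT replicate 1 was the lowest of its group, and the knockout libraries were nearly level. The means were 168 ± 28.7 CPM (SD, n = 4) and 94.4 ± 4.42 CPM (SD, n = 3), a 1.78-fold difference (log2 fold change 0.83, SE 0.13, adjusted p = 0.011 from edgeR). Without *Meioc* KO replicate 3 the adjusted p was 0.051. Of its 3 listed transcripts, Stk31-201 held 43.8% of the counts in WT and 44.3% in *Meioc* KO, Stk31-202 held the rest, and Stk31-204 was listed at 0 in all 7 libraries.

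*Tex19.1* (chr11:121146143-121148319, plus strand) moved least. It was measured at 67.7, 68.5, 63.2 and 58.1 CPM in WT and at 54.8, 54.6 and 54.7 CPM in *Meioc* KO. Every WT library was above the knockout libraries, which were almost identical, but WT replicate 4 only slightly so. The log2 fold change was 0.23 (SE 0.081, adjusted p = 0.088 from edgeR), and on log2(TPM + 1) it was -0.022. On that scale the median of all tested genes was -0.23, so *Tex19.1* lay above the median gene on both scales. Its neighbour *Tex19.2*, a close paralog, had a log2 fold change of 0.34 (SE 0.12, adjusted p = 0.090 from edgeR), and the TPM ratio of *Tex19.1* to *Tex19.2* overlapped between the genotypes, at 1.37 to 1.66 in WT and 1.37 to 1.87 in *Meioc* KO. The paralogs share few stretches, with 6.88% of the 31-base words of *Tex19.1* also in *Tex19.2*.

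The transcription factor gene *Taf7l* (chrX:134460118-134476490, minus strand) was measured at 406, 505, 460 and 517 CPM in WT and at 292, 246 and 315 CPM in *Meioc* KO. The groups did not overlap, with WT replicate 1 the lowest of its group and *Meioc* KO replicate 2 the lowest of all. The means were 472 ± 50.4 CPM (SD, n = 4) and 284 ± 35.0 CPM (SD, n = 3), a 1.66-fold difference (log2 fold change 0.73, SE 0.11, adjusted p = 0.010 from edgeR). Its longer transcript, Taf7l-201, held 78.1% of the counts in WT and 78.5% in *Meioc* KO and Taf7l-202 the rest. The broadly expressed paralog *Taf7* had a log2 fold change of 0.11 (SE 0.10, adjusted p = 0.50 from edgeR), which turned to -0.14 on log2(TPM + 1). The TPM ratio of *Taf7l* to *Taf7* was 6.81 ± 0.729 (SD, n = 4) in WT and 4.43 ± 0.225 (SD, n = 3) in *Meioc* KO, without overlap.

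The alpha tubulin genes lie apart on the same chromosome and share much of their sequence. Of the 31-base words of the *Tuba3a* transcript, 45.5% were also in *Tuba3b*, and of those of *Tuba3b*, 38.6% were in *Tuba3a*, so the division of reads between them was estimated. *Tuba3a* (chr6:125278274-125286042, minus strand) was measured at 129, 196, 191 and 218 CPM in WT and at 122, 113 and 108 CPM in *Meioc* KO. The groups did not overlap, but WT replicate 1 was close to *Meioc* KO replicate 1. The means were 183 ± 38.5 CPM (SD, n = 4) and 114 ± 7.38 CPM (SD, n = 3), with a log2 fold change of 0.68 (SE 0.16, adjusted p = 0.026 from edgeR). *Tuba3b* (chr6:145615757-145621479, plus strand) was measured at 91.0, 130, 133 and 144 CPM in WT and at 103, 86.8 and 84.4 CPM in *Meioc* KO. WT replicate 1 was within the knockout range and the other WT libraries were above it. The log2 fold change of *Tuba3b* was 0.45 (SE 0.15, adjusted p = 0.080 from edgeR), and without WT replicate 1 it was 0.57 (adjusted p = 0.0068 from edgeR).

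Counts of *Tuba3a* and *Tuba3b* added together do not depend on how reads were divided between them. The sum was 220, 326, 324 and 362 CPM in WT and 226, 199 and 192 CPM in *Meioc* KO. WT replicate 1 was below *Meioc* KO replicate 1, so the groups overlapped through that library alone. The log2 fold change of the sum was 0.58 (SE 0.15, adjusted p = 0.040 from edgeR). The TPM ratio of *Tuba3a* to *Tuba3b* was 1.73 ± 0.0519 (SD, n = 4) in WT and 1.47 ± 0.0622 (SD, n = 3) in *Meioc* KO, without overlap, at 1.67 to 1.78 and 1.40 to 1.52. The more widely expressed alpha tubulin genes did not pass the test, with log2 fold changes of 0.27 for *Tuba1a* (adjusted p = 0.21), 0.15 for *Tuba1b* (adjusted p = 0.40; -0.072 on log2(TPM + 1)) and 0.44 for *Tuba1c* (adjusted p = 0.12), all from edgeR.

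The mitochondrial carrier gene *Slc25a31* (chr3:40708855-40726096, plus strand), whose promoter held both motifs, was measured at 113, 154, 148 and 155 CPM in WT and at 104, 85.7 and 93.0 CPM in *Meioc* KO. The groups did not overlap. WT replicate 1 was far below the other WT libraries, which were nearly level. The means were 142 ± 19.9 CPM (SD, n = 4) and 94.1 ± 8.99 CPM (SD, n = 3), a 1.51-fold difference (log2 fold change 0.60, SE 0.12, adjusted p = 0.019 from edgeR). *Slc25a4* and *Slc25a5*, the ADP/ATP carriers of other tissues, had log2 fold changes of 0.049 (adjusted p = 0.75) and 0.16 (adjusted p = 0.43) in edgeR, which turned to -0.19 and -0.066 on log2(TPM + 1). The TPM ratio of *Slc25a31* to *Slc25a4* was 1.20 ± 0.158 (SD, n = 4) in WT and 0.838 ± 0.0404 (SD, n = 3) in *Meioc* KO, without overlap, while its ratio to *Slc25a5* overlapped, at 0.455 to 0.676 and 0.378 to 0.474.

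The calls for *Slc25a31*, *Tuba3a* and the tubulin sum rested on most of the libraries. Each was lost without WT replicate 2, 3 or 4 or *Meioc* KO replicate 2 or 3, with edgeR's adjusted p at 0.057 to 0.072 for *Slc25a31*, at 0.067 to 0.095 for *Tuba3a* and at 0.10 to 0.13 for the sum. In the same fits the calls over all tested genes also fell, from 1513 to between 131 and 478. The log2 fold changes there were 0.54 to 0.59, 0.57 to 0.67 and 0.48 to 0.56, respectively. On log2(TPM + 1) the calls for *Slc25a31*, *Tuba3a* and the sum were also lost, with adjusted p of 0.071, 0.094 and 0.16 from limma. *Dazl*, *Taf7l* and *Tdrkh* were called without any 1 of the 7 libraries.

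**Figure D3:**
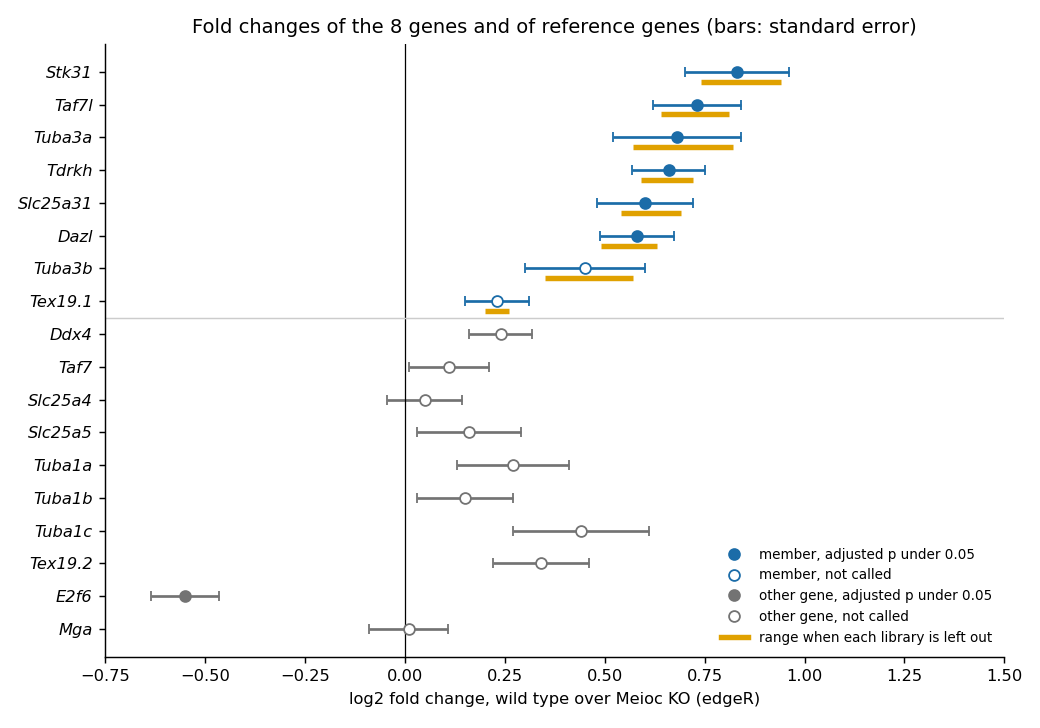
Log2 fold change (WT/*Meioc* KO) ± SE from edgeR for the 8 genes (blue), with the range over fits that leave out each library in turn (yellow), and for *Ddx4*, the paralogs, *E2f6* and *Mga* (grey); filled points have an adjusted p under 0.05. The 6 genes that passed lie between 0.58 and 0.83, the paralogs between 0.049 and 0.44, and *E2f6* at -0.55.

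The 8 genes differed in how WT replicate 1 compared with the other libraries. Each gene was set relative to its own mean over the 7 libraries on the log2(CPM + 0.5) scale. Averaged over the 8, WT replicates 2 to 4 stood at 0.34, 0.28 and 0.38 and the *Meioc* KO libraries at -0.29, -0.41 and -0.31, while WT replicate 1 stood at 0.0075, between the genotypes. *Tuba3b*, *Tuba3a*, *Slc25a31* and *Stk31* were below their own mean in WT replicate 1, at -0.25, -0.20, -0.070 and -0.031. *Taf7l*, *Dazl*, *Tex19.1* and *Tdrkh* were above theirs in it, at 0.10, 0.14, 0.17 and 0.20. The library also stood between the genotypes in the summed CPM of the meiotic entry markers, at 2532 CPM against 3472 to 3935 CPM in the other WT libraries and 1114 to 1378 CPM in *Meioc* KO. The part of this library's composition in the fold changes was not tested.

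**Figure D4:**
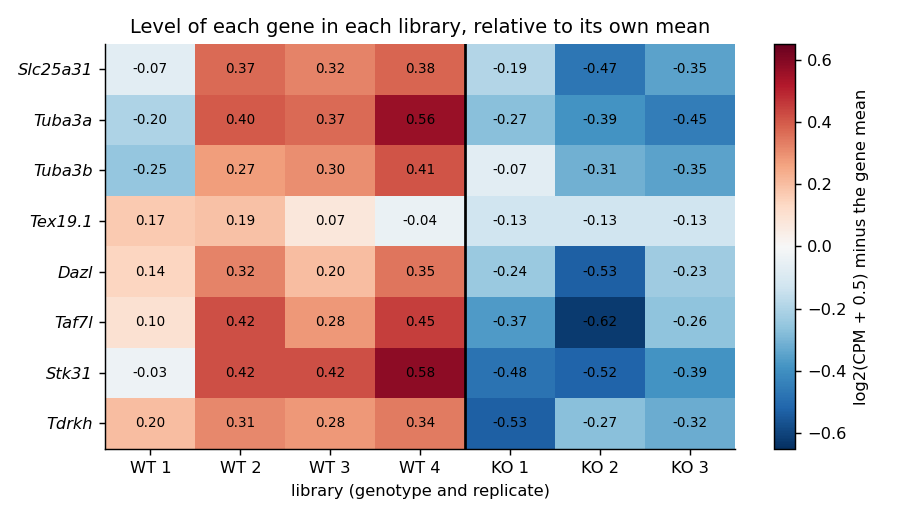
Level of each gene (rows) in each library (columns) as log2(CPM + 0.5) minus the gene's mean over the 7 libraries, with red above and blue below the mean. WT replicates 2 to 4 are red except for *Tex19.1* in WT replicate 4, the knockout columns are blue, and WT replicate 1 is mixed, from -0.25 for *Tuba3b* to 0.20 for *Tdrkh*.

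Distances between these profiles, as the root mean square difference of log2(CPM + 0.5) over the 7 libraries, were smallest for *Dazl* and *Taf7l* at 0.088. *Tuba3a* and *Slc25a31* followed at 0.10, and *Tex19.1* lay farthest from the others, at 0.23 to 0.37. The search for the nearest other genes covered 11651 tested genes that averaged 5 CPM or more. The nearest to *Dazl* were *Gps2* (0.049) and *Rps6ka6* (0.050). The nearest to *Taf7l* were *Xlr* (0.038) and *Ltv1* (0.057), those to *Stk31* were *Caprin2* (0.053) and *Atad2* (0.054), and those to *Tdrkh* were *Ankrd31* (0.055) and *Rpusd2* (0.059). *Slc25a31* was nearest to *Sgf29* (0.029) and *Dtl* (0.033), *Tuba3a* to *BC055324* (0.043) and *Pole4* (0.052), and *Tuba3b* to *Htra2* (0.051) and *Slc17a7* (0.056). *Tex19.1* was nearest to *Pkp4* (0.034) and *Pfkfb2* (0.037). These distances describe 7 shared libraries and were not tested.

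Other germline genes known to be silenced at their promoters were set beside the 8, a list also chosen with earlier results of these data known. Of 18 listed, all were tested, 12 were higher in WT and none was lower (edgeR), with a median log2 fold change of 0.82. The 12 were *Stag3*, *Smc1b*, *Sycp1*, *Sycp3*, *Hormad1*, *Mael*, *Fkbp6*, *Tex101*, *Dpep3*, *Zcwpw1*, *Majin* and *Tex11*. *Smc1b*, which encodes a meiotic cohesin subunit, had the highest log2 fold change, at 1.74 (SE 0.19), and *Tdrd1*, which encodes a piRNA pathway Tudor protein, had the lowest, at -0.24 (SE 0.10, adjusted p = 0.15 from edgeR). None of the 8 genes reached 1.00 on this scale, whereas *Stag3*, *Smc1b*, *Sycp3*, *Hormad1*, *Tex101*, *Dpep3*, *Zcwpw1* and *Majin* did, at 1.01 to 1.74. Of the 16 listed genes with a promoter window, 8 held TCCCGC, 10 held CACGTG and 6 held both.

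The genes that work beside the 8 were described in the same way. Of 18 tested piRNA and nuage genes, 3 (*Mael*, *Gtsf1* and *Fkbp6*) were higher in WT and 2 (*Piwil4*, at -0.80, and *Tdrd5*, at -0.59) were lower, with a median of 0.069, so *Tdrkh* at 0.66 lay above each of them. Of 7 tested genes listed with *Dazl*, *Boll* (0.90), a member of the same family, and *Dazap2* (0.41) were higher and *Nanos3* (-0.67) was lower, with a median of 0.092. Of 14 TFIID subunit genes, 6 were higher (*Taf4b*, *Taf6*, *Taf9*, *Taf9b*, *Taf10* and *Taf12*) and none was lower, with a median of 0.13; *Taf9* was the highest, at 0.77, and *Taf4* the lowest, at -0.25 (adjusted p = 0.32 from edgeR). Of the 8 tested broadly expressed paralogs none was called, and their median was 0.16. On log2(TPM + 1) the medians of these lists were -0.16, -0.16, -0.091 and -0.069, all above the median gene at -0.23, while the 8 genes had a median of 0.36 and the other promoter-silenced genes 0.56.

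Genes for PRC1.6, the complex of E2F6, and for DNA and histone H3K9 methylation were measured in the same libraries. *E2f6* itself was measured at 29.0, 28.2, 25.8 and 26.8 CPM in WT and at 39.6, 42.7 and 38.7 CPM in *Meioc* KO. It was thus lower in every WT library (log2 fold change -0.55, SE 0.085, adjusted p = 0.010 from edgeR), the opposite direction to the 6 genes that passed. *Mga* had a log2 fold change of 0.0088 (SE 0.10, adjusted p = 0.96 from edgeR). Under the other scalings *Mga* was slightly negative but stayed close to the median gene. It was -0.0011 with RLE scaling, -0.069 without scaling and -0.23 on log2(TPM + 1), where the medians of all tested genes were -0.017, -0.084 and -0.23. Of 16 PRC1.6 subunit genes, *L3mbtl2* (0.36) and *Hdac1* (0.35) were higher in WT and *E2f6* alone was lower, with a median of 0.068 that turned to -0.11 on log2(TPM + 1). Of 8 DNA methylation genes, *Dnmt1*, the maintenance methyltransferase, was higher in WT (0.45, SE 0.11, adjusted p = 0.031 from edgeR). The lowest was *Dnmt3l*, a cofactor of de novo methylation, at -0.94 (SE 0.29, adjusted p = 0.065 from edgeR). The median of that list was -0.24. The list also holds the demethylation genes *Tet1*, *Tet2* and *Tet3*, at -0.082, -0.29 and -0.20. Of 6 genes for histone H3K9 methylation, *Suv39h1* was higher (0.51, SE 0.094, adjusted p = 0.016 from edgeR) and *Ehmt2* was the lowest, at -0.36 (adjusted p = 0.073 from edgeR). RNA-seq gives no measure of DNA methylation or of E2F6 at the promoters.

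**Figure D5:**
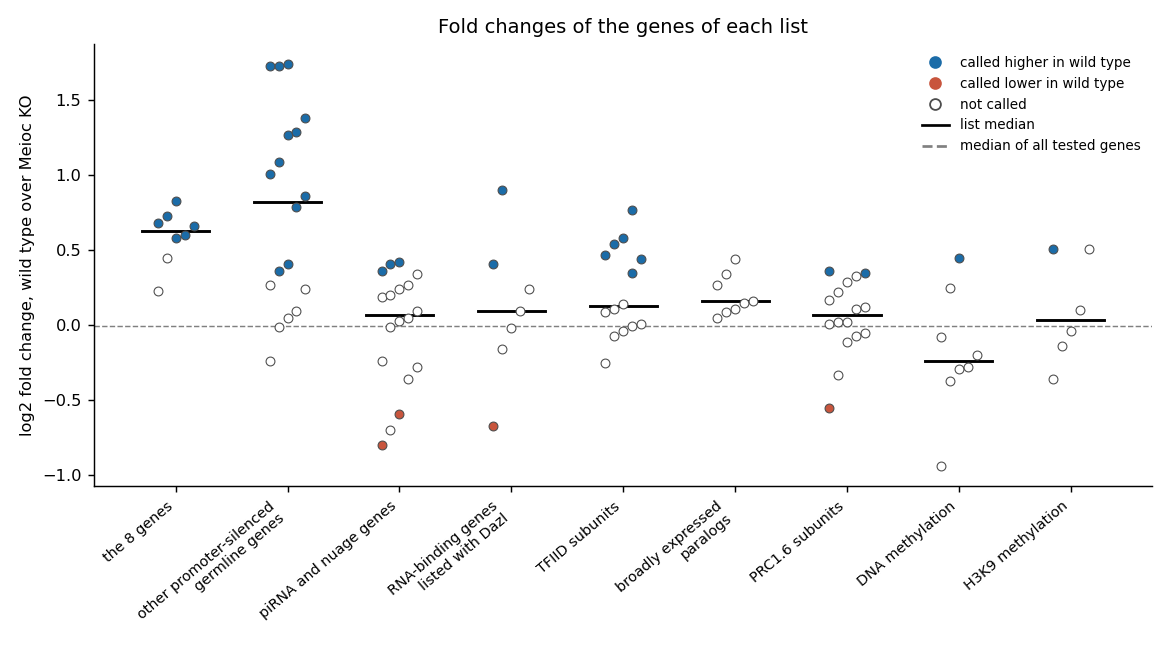
Log2 fold change (WT/*Meioc* KO) of each tested gene of each list, with called genes in blue (higher in WT) or red (lower in WT), the list median as a bar and the median of all tested genes (-0.0065) as a dashed line. The medians of the 8 genes (0.63) and of the other promoter-silenced germline genes (0.82) stand above those of the other lists, which lie between -0.24 and 0.16; some genes are in more than 1 list.

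Markers of some of the cell types differed between the genotypes as well. Of 7 germ cell markers, 5 of which are also in the list of promoter-silenced genes, 3 were higher in WT and none was lower, and their summed level was 1235 to 1415 CPM in WT and 857 to 916 CPM in *Meioc* KO. Single germ cell markers differed widely, from a log2 fold change of 1.27 for *Tex101* to -0.76 for *Dnd1* (adjusted p = 0.057 from edgeR), with *Ddx4*, a germ cell RNA helicase gene, at 0.24 (adjusted p = 0.081 from edgeR; -0.030 on log2(TPM + 1)). The summed level of the 8 genes was 1994 to 2511 CPM in WT and 1349 to 1577 CPM in *Meioc* KO. Of 9 markers of meiotic entry and prophase, 7 were higher. Among these, *Sycp1*, *Stag3*, *Smc1b* and *Hormad1* are also in the list of promoter-silenced genes. Of 6 tested markers of undifferentiated spermatogonia, 3 were lower in WT, and that list summed to 171 to 201 CPM against 249 to 368 CPM. Of 5 markers of differentiating spermatogonia, 1 (*Kit*) was higher. The 5 together summed to 365 to 452 CPM in WT against 323 to 349 CPM in *Meioc* KO. Sertoli cell markers summed to 4414 to 4608 CPM in WT and 4613 to 5346 CPM in *Meioc* KO, with 1 of 7 lower. That sum mostly follows *Clu*, with means of 3587 CPM in WT and 4015 CPM in *Meioc* KO. *Clu* was not called (adjusted p = 0.17 from edgeR), and 3 of the 7 markers had a positive log2 fold change. Macrophage markers summed to 73.6 to 79.7 CPM in WT and 80.5 to 96.1 CPM in *Meioc* KO, with none of 5 called. The sums of Leydig, peritubular myoid and endothelial cell markers overlapped. None of 6 markers of postmeiotic germ cells passed the filter on low values. *Prm1*, *Prm2*, *Tnp1* and *Tnp2* were at no more than 3 counts in every library. *Acrv1* was at no more than 6 counts in any library. *Acr* was at no more than 1 count in WT and at 0, 6 and 4 counts in *Meioc* KO replicates 1 to 3. The part of these shifts in the fold changes of the 8 genes was not tested.

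Library totals were 12537852 to 20552702 estimated counts, at which 3 counts correspond to 0.151 to 0.237 CPM, far below each of the 8 genes. The targeted gene *Meioc* was higher in every WT library than in every *Meioc* KO library (log2 fold change 0.76, adjusted p = 0.021 from edgeR), although the null allele still gave transcripts. Each library was from its own pup, so the spread between replicates includes differences between animals.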

How the data were processed

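Bulk RNA-seq was measured in 4 WT and 3 *Meioc* KO libraries, with groups and replicate numbers taken from their titles and genotype labels. Per the methods, total RNA was depleted of ribosomal RNA and made into stranded libraries, read as single ends. Different spike-in mixes went into the genotypes, and the study did not use them. The authors trimmed reads with cutadapt 1.8 and ran kallisto 0.44.0, with strand and sequence-bias correction, on GENCODE Basic vM15 transcripts (mm10); versions are from the submitters' processing notes. The deposited tables list estimated counts, not normalized across libraries, and TPM, which the authors renormalized over protein-coding transcripts, beside transcript lengths.

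Both units were summed by gene in GENCODE vM21 on GRCm38; 119 of 43139 transcripts were not matched (0.247% to 0.282% of counts) and were left out. Estimated counts were rounded, and genes with at least 1 TPM in at least 3 of 7 libraries (13630) were TMM-normalized and fitted by genotype alone in edgeR 4.0.16 (R 4.3.3), whose quasi-likelihood F test gave p-values, adjusted by Benjamini-Hochberg. SE is the absolute log2 fold change over the square root of F. The fits were tested on simulated data. Alternatives, including DESeq2 1.42.0 and limma 3.58.1 on log2(TPM + 1), are given below. Sequence words of 31 bases were counted in vM21 transcripts. No pair of libraries differed as little as counting noise. Floors cover counting error only, whereas SD and SE include the spread between pups.

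Named were the 8 genes, *Meioc*, *E2f6*, *Mga*, paralogs, the called and most extreme genes of each list, and the 2 nearest profiles per gene; *Ddx4* and the genes of a log2 fold change above 1.00 were singled out after values were seen. The 8 genes and all lists were chosen with earlier results of these data known. Protein sequences were not used here.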

Additional observations from a re-analysis of the deposited data

Results flagged for a closer look

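The *Slc25a31* level of WT replicate 1 was 113 CPM, and its gap to the nearest WT library was 0.841 of the WT range, above Dixon's 95% critical value for a group of 4. It was the only value flagged among 20 groups of WT values tested, of which chance flags about 1 in 20. Leaving that library out raised the log2 fold change of *Slc25a31* from 0.60 to 0.69 (adjusted p = 0.0021 from edgeR). The reason for the low value was not tested.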

How the results depend on the processing

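Of the 8 genes, 6 were called in the comparison reported; the count was 7 with DESeq2, 6 with RLE scaling, without scaling beyond library size, without a filter, with filterByExpr or with the length trend removed, 4 on log2(TPM + 1), 3 on log2(TPM + 0.1), and 3 to 7 when each library was left out. The fold change of *Tex19.1* reversed to -0.022 on log2(TPM + 1) and -0.023 on log2(TPM + 0.1), where the median gene stood at -0.23 and -0.25; no other gene of the 8 reversed. The log2 fold change of *Tuba3a* and *Tuba3b* summed was no longer called at 0.30 on log2(TPM + 1) and 0.31 on log2(TPM + 0.1), and ranged from 0.48 to 0.71 when each library was left out. *Tuba3b* was called by DESeq2 (0.44, adjusted p = 0.034) at an otherwise similar size. Over all tested genes 1513 were called, against 2331 by DESeq2 and 131 (without *Meioc* KO replicate 3) to 2172 (without WT replicate 1) in the fits that left out a library. On log2(TPM + 1) and log2(TPM + 0.1), 361 and 274 of all tested genes, respectively, were called higher in WT. The share of calls that were higher in WT was 70.0%, 47.3% without scaling and 18.1% on log2(TPM + 1); the cause was not tested.

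Replicate numbers are shared between the genotypes, but same-numbered libraries did not deviate together (correlations of -0.044, -0.097 and -0.21), and 0 of 6 numbered libraries correlated best with their own number. With a replicate block, to which WT replicate 4 adds nothing for the fold change, 109 genes in all and 1 of the 8 (*Stk31*) were called, and the tubulin sum was 0.48 (adjusted p = 0.18 from edgeR). Depth did not limit these genes, each with at least 415 counts in every library, but 4 against 3 libraries limit the precision of each fold change.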
